A study of Mus musculus with 19 samples.

Results

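The aminoacyl-tRNA synthetases made up 37 of the 55359 genes in the count tables of mouse B16-F10 melanoma cells. They were taken by symbol, by a rule that uses no measured value. Earlier results of these data were known when the members were chosen. There were 18 cytosolic enzymes or subunits and 17 mitochondrial enzymes, whose symbols end in 2. Gars (glycine) and Kars (lysine) serve both compartments and were counted apart as dual. Symbols follow the tables, which use older names such as Aars for the alanyl enzyme. Tars3 was matched to no row, and Tarsl2, an older name of that gene, was not counted as a member. All 37 members passed the filter on low counts in input RNA (20025 genes kept) and in footprints (16878 genes kept).

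The study compared B16-F10 cells with a Mettl5 knockout (KO) with cells that carry a scrambled control (SCR). METTL5 methylates the RNA of the small ribosomal subunit. Of 19 samples, 8 were libraries of cultured cells, with 2 of input RNA and 2 of ribosome footprints in each genotype. Another 2 were single-cell libraries, 1 for each tumour genotype, of live CD45-positive cells sorted from tumours. The sort was for cells of the host, so KO and SCR name the tumour cells and not the cells sorted. Transcripts of melanoma markers were detected in these libraries as well. The 9 blood T-cell receptor samples do not bear on these genes. All cultures grew in the same serum-supplemented medium. Every footprint library came from cells treated with 100 µg/ml cycloheximide for 8 min with the lysates kept at 22 C with RNase for 40 min. The columns read as KO are named POOL in the count tables and were assigned by elimination, since the others are named SCR. The labels give no edit and no number of clones, and do not state whether replicates were separate cultures. The p-values therefore measure only the spread between these libraries.

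An aminoacyl-tRNA synthetase joins an amino acid to its tRNA, the step that supplies ribosomes with charged tRNA. Mitochondria translate their own few mRNAs and use a separate set of enzymes, encoded in the nucleus and imported. In the cytosol several synthetases sit in the multisynthetase complex, held by the scaffold proteins AIMP1, AIMP2 and AIMP3 (gene Eef1e1), while the others act free. Many cytosolic synthetase genes are known targets of ATF4, the transcription factor of the amino acid response.

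Total counts were 38968000 to 48692578 in input RNA and 14555963 to 31301806 in footprints. The members took 0.382 to 0.426% of input RNA counts and 0.602 to 0.686% of footprint counts. For Mettl5 there were 369 and 414 counts in SCR against 303 and 268 in KO input RNA, a fall of the transcript (log2 fold change -0.56, SE 0.13, edgeR adjusted p = 0.0284) that passed in 5 of 9 alternative fits. Its footprints did not pass (-0.35, SE 0.09, adjusted p = 0.112). These counts cover the whole gene, so they are an incomplete check of the knockout. All 7 melanoma markers were detected in every library. Their sum was 12968 to 13128 CPM (counts scaled to the library total) in SCR against 13301 to 13475 in KO input RNA. Single markers went both ways there, as Mlana (0.59, adjusted p = 0.00548) and Dct (0.43, adjusted p = 0.00248) rose and Tyr (-0.25, adjusted p = 0.0312) and Mitf (-0.22, adjusted p = 0.0205) fell by edgeR, and their part in the members' changes was not tested. Of 6 blood cell markers, Ptprc, Cd3e and Itgam were at 0 in input RNA. The 6 summed to 2.95 and 3.81 CPM in SCR against 1.81 and 2.89 in KO input RNA. Rn18s, an 18S ribosomal RNA row, took 2.83 to 4.17% of footprint counts.

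The level of each enzyme was compared as footprint density, the CPM (scaled by TMM) per kilobase of coding sequence, with coding length from the authors' list of open reading frames. Cytosolic genes stood above mitochondrial genes by this measure, with medians of 87.3 (18 genes) and 9.94 (17 genes) in SCR cells. Gars had the highest density (420 and 432 in SCR, 465 and 496 in KO libraries). Next was the seryl enzyme gene Sars (354 and 355 in SCR, 344 and 362 in KO libraries). The mitochondrial leucyl gene Lars2 followed, but its SCR libraries differed widely (159 and 346). Without Lars2 the mitochondrial genes ran from 2.28 for the prolyl gene Pars2 to 39.5 for the isoleucyl gene Iars2. Nars (asparagine) had a mean density of 232 in SCR cells and Eprs, whose product charges both glutamate and proline, 206. Rars (arginine) followed at 104. The lowest cytosolic density was that of Farsa, a subunit of the phenylalanyl enzyme, at 22.4. In the SCR order, 15 of 36 neighbouring genes had overlapping values and cannot be ranked against each other. Aars, Iars, Wars, Vars, Mars1 and Dars lay close together, from 95.9 down to 86.5. No test between genes was made.

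**Figure D1:**
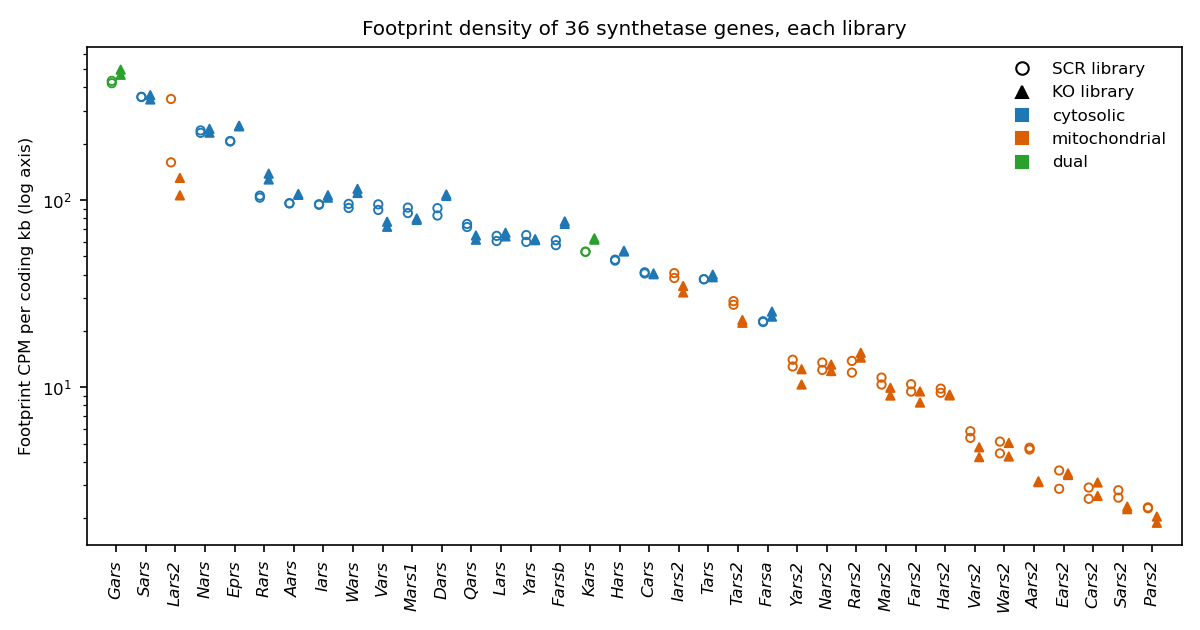
Footprint density (CPM per kilobase of coding sequence, log axis) of 36 of the 37 synthetase genes, ordered by their mean in SCR cells. Circles are SCR and triangles KO libraries (2 each), and colour gives the compartment. Cytosolic and dual genes fill most of the left and mitochondrial genes the right, apart from Lars2, whose SCR libraries stand at 159 and 346.

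The footprints that a gene had per unit of its input RNA, as a ratio of mean CPM in SCR cells, also spanned a wide range. The median over the 37 genes was 1.03 in SCR against 0.884 in KO cells. Lars2 had the highest ratio at 19.4, and the next was Rars at 3.35. The lowest were the mitochondrial seryl gene Sars2 at 0.248 and the mitochondrial cysteinyl gene Cars2 at 0.159. Footprints come mainly from coding sequence and input RNA from the whole transcript, so the ratio also depends on how much of a transcript is coding.

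In input RNA some of the synthetase transcripts rose in KO cells and most did not pass the test. Of 37 members, 11 rose, 0 fell and 26 did not pass, where 9.56% of all genes tested rose and 7.21% fell. At an unadjusted p below 0.05 there were 22 higher and 1 lower, against 32.2% of all genes in either direction, and DESeq2 called 13 higher and 0 lower (10.6 and 7.35% of all genes). Limma's voom called 11 higher and 0 lower (9.48 and 7.12% of all genes). The median log2 fold change over the members was 0.18, against -0.006 over all genes tested. Values above 0 were found in 34 of 37 members and in 9863 of 20025 genes tested. In 25 members both KO libraries lay above both SCR libraries and in 2 below, where each order was found in 31.0% of all genes. In bulk libraries, a change in RNA per cell and a change in the mix of cells cannot be told apart.

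Aars, which encodes the cytosolic alanyl enzyme (chr8:111763562-111781833 from start to stop codon, GRCm39, plus strand), had the largest rise. Its input RNA was 215 and 209.7 CPM in SCR against 312 and 298 CPM in KO libraries. Both KO values were far above both SCR values (log2 fold change 0.52, SE 0.05, edgeR adjusted p = 0.00216). Farsa (chr8:85583664-85595630, plus strand) was at 50.9 and 52.0 CPM in SCR against 68.0 and 68.2 CPM in KO input RNA. Its libraries were close within each genotype, and it was the next member by adjusted p (0.40, SE 0.05, edgeR adjusted p = 0.00618). Its partner Farsb, the other subunit of the same enzyme, was at 99.5 and 91.7 CPM in SCR against 106 and 105 CPM in KO libraries and did not pass (0.14, SE 0.06, adjusted p = 0.1497).

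Among the other cytosolic genes, Vars, the valyl enzyme gene (chr17:35220420-35235228, plus strand), was at 308 and 306 CPM in SCR against 421 and 365 CPM in KO input RNA. Yars, the tyrosyl enzyme gene (chr4:129083809-129112331, plus strand), was at 96.3 and 95.9 CPM in SCR against 132 and 113 CPM in KO libraries. In both genes the SCR libraries were nearly equal, KO replicate 1 stood higher than KO replicate 2, and the genotypes did not overlap (log2 fold changes 0.36 and 0.35, SE 0.07 and 0.08, edgeR adjusted p = 0.0168 and 0.0253). Mars1, the methionyl enzyme gene (chr10:127132166-127147498, minus strand), was at 132 and 128 CPM in SCR against 168 and 149.95 CPM in KO libraries. The seryl gene Sars (chr3:108334149-108352448, minus strand) was at 201 and 204 CPM in SCR against 244 and 226 CPM in KO libraries. Both rose without overlap, by 0.29 (SE 0.06, adjusted p = 0.0256) and 0.22 (SE 0.05, adjusted p = 0.0348), and Sars was the smallest rise that passed. Of all genes tested, 31.0% had both KO libraries above both SCR libraries. Tars (0.20, SE 0.06, adjusted p = 0.0503) and Nars (0.22, SE 0.06, adjusted p = 0.0508) lay just above the threshold of 0.05 and did not pass.

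The dual genes rose together. Kars (chr8:112720243-112737900, minus strand) was at 107 and 112 CPM in SCR against 133 and 138 CPM in KO input RNA. Gars (chr6:55015027-55056327, plus strand) was at 386 and 383 CPM in SCR against 498 and 451 CPM in KO libraries. Neither gene overlapped between genotypes, where 31.0% of all genes tested had both KO libraries above both SCR libraries. The rises were of like size (log2 fold changes 0.31 and 0.30, SE 0.05 and 0.06, edgeR adjusted p = 0.0125 and 0.0155).

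Of the 17 mitochondrial genes 3 rose in input RNA, against 6 of 18 cytosolic genes and 9.56% of all genes tested. Yars2, the mitochondrial tyrosyl gene (chr16:16120860-16127352, plus strand), was at 31.8 and 31.5 CPM in SCR against 41.5 and 40.7 CPM in KO libraries. Tars2, the mitochondrial threonyl gene (chr3:95647486-95662150, minus strand), was at 62.2 and 62.9 CPM in SCR against 89.0 and 76.6 CPM in KO libraries. Cars2 (chr8:11564117-11600677, minus strand) was at 28.8 and 28.2 CPM in SCR against 33.6 and 36.6 CPM in KO libraries. All 3 were higher in both KO libraries, as were 31.0% of all genes tested. Their log2 fold changes were 0.38 (SE 0.06, edgeR adjusted p = 0.0101), 0.40 (SE 0.08, adjusted p = 0.0160) and 0.30 (SE 0.07, adjusted p = 0.0333). The median change was 0.12 for the mitochondrial and 0.19 for the cytosolic genes. Above 0 were 16 of 17 and 16 of 18, against 9863 of 20025 genes tested. The difference between the compartments was not tested.

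The number of members that rose depended on which library was kept. It was 2 without SCR replicate 1, 4 without SCR replicate 2, 13 when KO replicate 1 was left out and 11 when KO replicate 2 was. It was 4 when no filter on low counts was applied. The share of all genes called in either direction moved too, to 4.98, 6.83, 10.98 and 20.4% with these libraries left out and to 4.12% with no filter. Aars and Farsa passed in all 9 alternative fits.

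**Figure D2:**
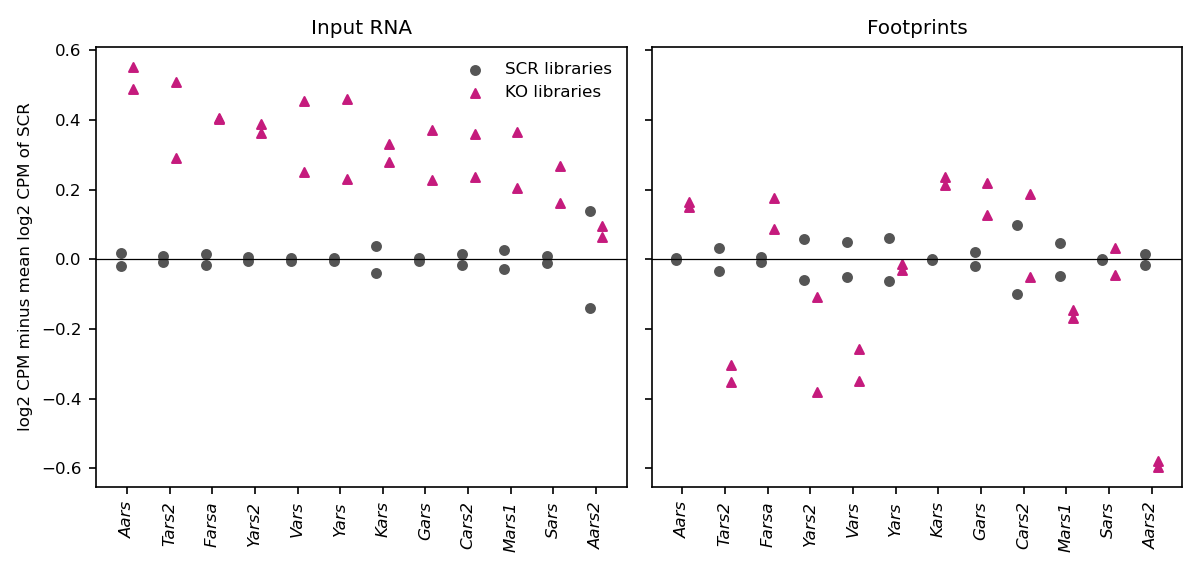
Log2 CPM of each library minus the mean log2 CPM of the SCR libraries, in input RNA (left) and footprints (right), for the 12 members that changed in input RNA or footprints. Grey circles are SCR and magenta triangles KO libraries (2 each). In input RNA the KO libraries lie above the SCR libraries in every gene but Aars2, and in footprints they lie on both sides.

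The promoters of the members were read for motifs, whether or not the transcript had passed the test. RefSeq promoters (250 bases before to 50 after the start site, GRCm38.p6) matched 27 of 37 members. The windows shown carry TGATGNAA, the core that ATF4 recognises in amino acid response genes, in capitals with 10 bases on each side, on the strand that spells the motif.
Aars, first base at 10 from the start site, chr8:111033841-111033868: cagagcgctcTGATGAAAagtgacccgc
Gars, first base at -30, chr6:55037961-55037988: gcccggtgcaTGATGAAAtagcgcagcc
Iars, first base at 8, chr13:49682127-49682154: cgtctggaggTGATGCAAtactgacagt
Tars, first base at -15, chr15:11399656-11399683: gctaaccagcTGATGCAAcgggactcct
Yars, first base at 4, chr4:129189896-129189923: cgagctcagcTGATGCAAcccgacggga
The Yars window is on the gene's strand and the others on the opposite strand.

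The motif TGATGNAA, searched on both strands, was in 5 of 27 member promoters (18.5%) and in 3.97% of 32851 RefSeq promoters of the same length. Of the 5 genes, Aars, Gars and Yars rose in input RNA, where 11 of all 37 members rose. Iars (log2 fold change 0.13, SE 0.05, edgeR adjusted p = 0.151) and Tars did not pass. The palindrome CACGTG, the E-box read by MYC and related factors, was in Aars, Ears2, Farsb, Iars and Tars (18.5%) and in 7.15% of promoters. Of the members with CACGTG only Aars rose in input RNA. The NRF1 motif, searched as GCGC and TGCGC with any base between, was in Farsb, Iars2, Kars, Mars2 and Tars (18.5%) and in 4.60% of promoters. Of the members with the NRF1 motif only Kars rose. Whether a motif goes with the change in RNA was not tested. A match describes the letters only.

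In ribosome footprints the members went both ways. Of 37 members 0 rose and 1 fell by edgeR's quasi-likelihood test, where 0.510% of all genes tested rose and 1.78% fell. At an unadjusted p below 0.05 there were 8 higher and 7 lower, against 25.03% of all genes in either direction. DESeq2 called 7 higher and 4 lower, with 2.46% of all genes higher and 5.72% lower, and voom called 0 in either direction (0.521 and 1.63% of all genes). The median change was -0.006 over the members and 0.007 over all genes. Both KO libraries lay above both SCR libraries in 13 members and below in 14, where 29.5% and 28.2% of all genes did so.

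The gene that fell was Aars2, the mitochondrial alanyl enzyme (chr17:45817780-45831373, plus strand). Its footprints were 13.7 and 14.0 CPM in SCR against 9.16 and 9.26 CPM in KO libraries. The libraries of a genotype were close and the genotypes far apart (log2 fold change -0.59, SE 0.08, edgeR adjusted p = 0.0486). It did not pass when any of the 4 libraries was left out (adjusted p from 0.144 to 0.193), and its adjusted p was 0.0516 with voom. Its input RNA was 21.4 and 17.6 CPM in SCR against 20.3 and 20.8 CPM in KO libraries, which overlap. Blood cell markers were also lower in KO footprints, at 9.59 and 10.0 CPM for the sum of 6 in SCR against 4.40 and 5.90 CPM in KO libraries, with Itgam at 0 throughout. Their part in the value of Aars2 was not tested.

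The members next in order of p in footprints did not pass. Farsb was at 101 and 108 CPM in SCR against 131 and 136 CPM in KO footprints. Rars was at 204 and 209 CPM in SCR against 273 and 254 CPM in KO footprints. Both were higher in each KO library (0.35, SE 0.06, edgeR adjusted p = 0.0613, and 0.36, SE 0.06, adjusted p = 0.0635). Tars2 was at 62.5 and 59.8 CPM in SCR against 47.9 and 49.6 CPM in KO footprints, lower in each KO library although its RNA had risen (-0.33, SE 0.06, adjusted p = 0.0660). Vars showed the same opposite order, at 359 and 335 CPM in SCR against 272 and 289.8 CPM in KO footprints (-0.30, SE 0.07, adjusted p = 0.0923). Kars was at 94.5 and 94.3 CPM in SCR against 109 and 111 CPM in KO footprints, higher as in its RNA (0.23, SE 0.05, adjusted p = 0.0939). Eprs had 930.1 and 936 CPM in SCR against 1120 and 1129 CPM in KO footprints (0.27, SE 0.07, adjusted p = 0.108).

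The compartments differed in their medians in footprints, at 0.10 for the cytosolic and -0.19 for the mitochondrial genes. Values above 0 were found in 12 of 18 cytosolic and 4 of 17 mitochondrial genes, and in 8619 of 16878 genes tested. Cytosolic and mitochondrial genes were paired where their symbols differ only by the final number, which gave 14 pairs. Phenylalanine (Farsa and Farsb with Fars2), glutamate (Eprs with Ears2) and proline (Eprs with Pars2) were left out by this match. The cytosolic gene had the higher log2 fold change in 13 of these 14 pairs in footprints and in 7 of 14 in input RNA. In some of the 13 the footprint values lay close together, as for valine (-0.30 and -0.31) and methionine (-0.16 and -0.19). The exception in footprints was cysteine, where neither gene passed. Alanine shows the largest contrast apart from leucine: Aars footprints were 278 and 279 CPM in SCR against 309 and 312 CPM in KO libraries (0.16, SE 0.05, adjusted p = 0.173), opposite in sign to Aars2. For tryptophan, Wars footprints were 129.97 and 137 CPM in SCR against 156 and 164 CPM in KO libraries (0.27, SE 0.06, adjusted p = 0.0924), with its input RNA nearly level at 143 and 138 against 136 and 136 CPM. The pairs share libraries and are not independent, and no test over them was made.

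**Figure D3:**
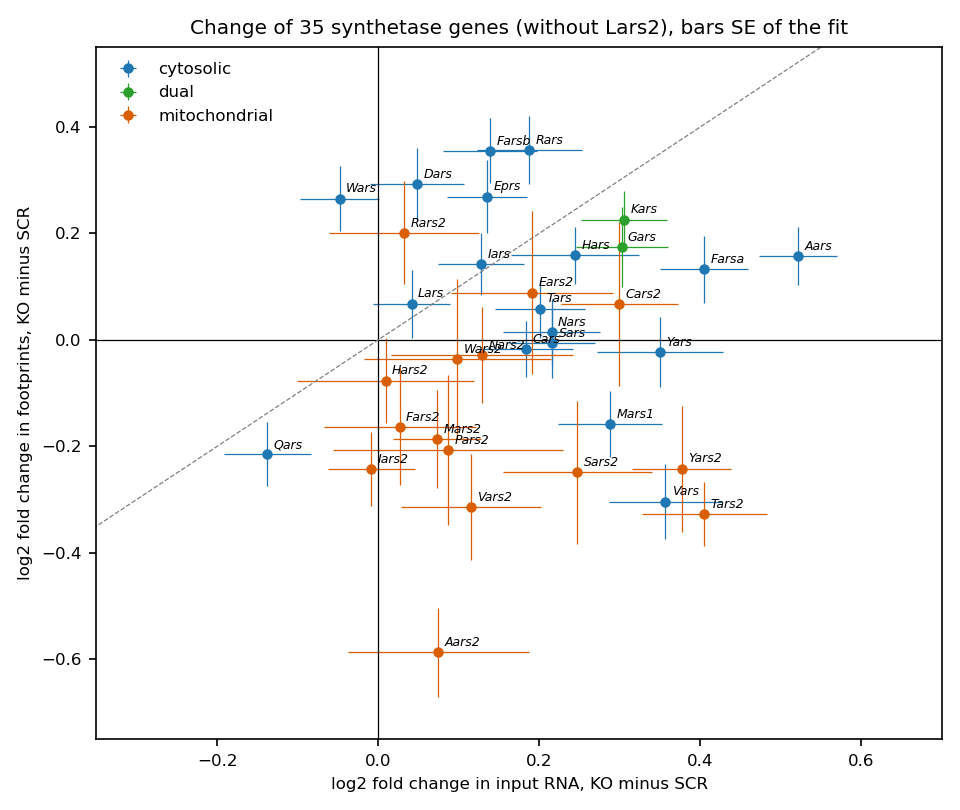
Log2 fold change (KO minus SCR) in footprints against that in input RNA for 35 members, with Lars2 left out for its spread. Bars are the SE of each fit, colour is the compartment, and the dashed line marks equal changes. Most genes lie right of 0 and below the dashed line, and Aars2 lies lowest at -0.59.

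Translational efficiency, the change in footprints beyond the change in input RNA, was tested as a genotype by assay interaction. That fit used all 8 libraries of cultured cells, and the other comparisons drew on the same libraries. Of 37 members 0 rose and 5 fell by edgeR's quasi-likelihood test, where 0.788% of all genes tested rose and 3.40% fell. At an unadjusted p below 0.05 there were 1 higher and 17 lower, against 20.3% of all genes in either direction. DESeq2 called 1 higher and 8 lower, with 1.96% of all genes higher and 6.07% lower, and voom called 0 higher and 4 lower (0.582 and 1.92% of all genes). The median over the members was -0.23, against -0.055 over all genes. Values below 0 were found in 31 of 37 members and in 12670 of 23211 genes tested. In the 14 pairs of cytosolic and mitochondrial genes, the cytosolic gene had the higher value in 10.

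The genes that fell were Tars2 (log2 fold change -0.77, SE 0.11, edgeR adjusted p = 0.0208), Vars (-0.70, SE 0.11, adjusted p = 0.0247), Yars2 (-0.66, SE 0.13, adjusted p = 0.0386), Mars1 (-0.49, SE 0.10, adjusted p = 0.0403) and Aars (-0.40, SE 0.07, adjusted p = 0.0314). All 5 had risen in input RNA, and the efficiency uses that RNA as its denominator. Footprints per input RNA fell from 0.978 to 0.589 for Tars2, from 1.13 to 0.715 for Vars and from 1.31 to 1.02 for Aars, as ratios of mean CPM. Yars2 footprints were 19.7 and 18.1 CPM in SCR against 17.5 and 14.5 CPM in KO libraries. Mars1 footprints were 230.3 and 246 CPM in SCR against 215 and 212 CPM in KO libraries. In Yars2 and Mars1 the KO footprints were lower without passing a test, while in Aars they were higher. Aars2 lay at the threshold (-0.70, SE 0.15, adjusted p = 0.0501). The highest values were those of Wars (0.27, SE 0.08, adjusted p = 0.102), Dars (0.20, SE 0.10, adjusted p = 0.310) and Farsb (0.18, SE 0.08, adjusted p = 0.304), none of which passed.

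The count of 5 was 0 without input RNA of SCR replicate 1, of SCR replicate 2 or of KO replicate 1, where at most 3 genes of the whole table passed. With any other library left out, some members passed, up to 5. Tars2 and Vars each passed in 11 of 14 alternative fits. In the authors' deposited table of translational efficiency, 8 members fell and 0 rose at an adjusted p below 0.05, where 8.69% of its genes fell and 2.17% rose. They were the same 5 genes with Aars2 (log2 fold change -0.72), Farsa (-0.33) and Lars2 (-1.41) in the authors' deposited table. The median over the 37 members there was -0.25, against -0.09 over all its genes.

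**Figure D4:**
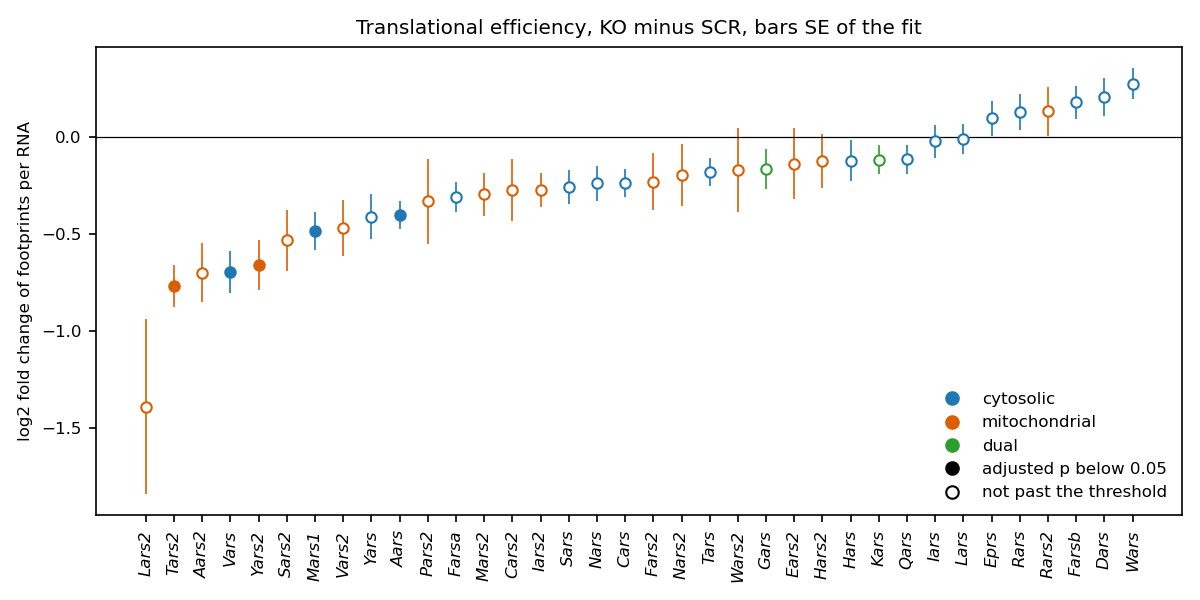
Log2 fold change in translational efficiency (footprints per RNA, KO minus SCR) of 36 of the 37 members in order, with bars for the SE of the fit and colour for the compartment. Filled points pass an adjusted p of 0.05. Of the 36 values 30 lie below 0, and the 5 filled points run from -0.77 (Tars2) to -0.40 (Aars).

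The multisynthetase complex was described by its 8 enzyme genes (Dars, Eprs, Iars, Kars, Lars, Mars1, Qars and Rars) and 3 scaffold genes. Of the 8 enzymes 2 rose in input RNA (Kars and Mars1), 0 changed in footprints and 1 fell in translational efficiency (Mars1). The median was 0.13 in input RNA and 0.18 in footprints, and for translational efficiency it was -0.02. Of the 11 free cytosolic genes 5 rose in input RNA and 2 fell in translational efficiency, with medians of 0.22 and -0.24. Of all genes tested, 9.56% rose in input RNA and 3.40% fell in translational efficiency. In footprints 0.510% of all genes rose and 1.78% fell. Qars, the glutaminyl enzyme, was below 0 in input RNA, where most members were above, and passed in no comparison. Its input RNA was 113 and 111 CPM in SCR against 98.8 and 105 CPM in KO libraries (-0.14, SE 0.05, edgeR adjusted p = 0.131). Its footprints were 173 and 167 CPM in SCR against 150.2 and 143 CPM in KO libraries, also lower without passing (-0.22, SE 0.06, adjusted p = 0.123).

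All 3 scaffold genes rose in input RNA, where 9.56% of all genes did. They were listed with earlier results of these data known. Eef1e1 passed in all 9 alternative fits as well, Aimp2 in 5 of them and Aimp1 in 2. Eef1e1 was at 61.2 and 54.3 CPM in SCR against 80.0 and 76.9 CPM in KO libraries (0.44, SE 0.07, edgeR adjusted p = 0.00970). Aimp2 was at 15.4 and 16.8 CPM in SCR against 21.03 and 20.3 CPM in KO libraries (0.36, SE 0.10, adjusted p = 0.0445). Aimp1 was at 24.1 and 25.4 CPM in SCR against 32.2 and 28.9 CPM in KO libraries (0.30, SE 0.08, adjusted p = 0.0496). No scaffold gene overlapped between genotypes in RNA, and 31.0% of all genes had both KO libraries above both SCR libraries there. In footprints 0 of 3 passed (Eef1e1 0.24, SE 0.09, adjusted p = 0.208; Aimp1 0.11, SE 0.07, adjusted p = 0.417), and in translational efficiency 0 of 3 passed, with values from -0.34 to -0.23.

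The subunits of the cytosolic phenylalanyl enzyme, which assemble in equal numbers, did not have equal footprint density. Farsb stood above Farsa by 2.55 and 2.73 times in the SCR libraries and by 2.94 and 3.22 times in the KO libraries. The ratio was higher in both KO libraries. Coding length is taken into account here, but density also depends on how fast ribosomes move, so it need not equal protein made.

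Synthetases fall into class I and class II by the fold of their catalytic domain. In input RNA 5 of 18 class I and 6 of 18 class II genes rose, and in translational efficiency 3 and 2 fell, so the classes gave similar counts. Of the 13 synthetases listed as known ATF4 targets, 6 rose in input RNA (Aars, Gars, Mars1, Sars, Vars and Yars), 0 changed in footprints and 3 fell in translational efficiency (Aars, Mars1 and Vars). Of the 7 other cytosolic and dual genes, 2 rose in input RNA (Farsa and Kars) and 0 changed in the other comparisons. The medians in input RNA were 0.22 and 0.19. The list of targets was chosen with earlier results of these data known. Of all genes tested, 9.56% rose in input RNA and 3.40% fell in translational efficiency. In footprints 0.510% of all genes rose and 1.78% fell.

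Of Atf4 and 19 further genes of the amino acid response and supply, many were higher in KO input RNA. There 10 of 20 rose and 0 fell, where 9.56% of all genes rose. The list was chosen with earlier results of these data known, so these counts only describe it. In footprints 0 passed, and in translational efficiency 0 rose and 6 fell, where 3.40% of all genes fell. The medians were 0.20, -0.13 and -0.39. Atf4 input RNA was 197 and 183 CPM in SCR against 280.4 and 264 CPM in KO libraries (0.52, SE 0.06, edgeR adjusted p = 0.00350). Its footprints were nearly level, at 137 and 146 CPM in SCR against 131 and 139 CPM in KO libraries (-0.07, SE 0.07, edgeR adjusted p = 0.578). Slc7a5, which carries large neutral amino acids into cells, was at 267 and 252 CPM in SCR against 367 and 357 CPM in KO input RNA (0.48, SE 0.05, adjusted p = 0.00328). Psph, of serine synthesis, and Shmt2, the mitochondrial serine hydroxymethyltransferase, rose by 0.51 (SE 0.06, adjusted p = 0.00511) and 0.34 (SE 0.04, adjusted p = 0.00570). The genes of the smallest p in footprints were Slc1a5, a glutamine carrier (-0.35, SE 0.08, adjusted p = 0.0931), and Sesn2, a leucine sensor (-0.28, SE 0.07, adjusted p = 0.0942). In translational efficiency Slc7a5 (-0.68, SE 0.09, adjusted p = 0.0208), Atf4 (-0.63, SE 0.09, adjusted p = 0.0231), the cystine carrier Slc7a11 (-0.72, SE 0.11, adjusted p = 0.0234) and Slc3a2, the heavy chain shared by both carriers (-0.52, SE 0.10, adjusted p = 0.0361), fell.

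Of 15 other genes that charge, edit, repair or export tRNA, 2 rose in input RNA (9.56% of all genes did) and 0 passed in footprints or translational efficiency. This list, too, was chosen with earlier results of these data known. Sepsecs, which makes selenocysteinyl-tRNA, rose by 0.29 (SE 0.06, edgeR adjusted p = 0.0223). Gatb, a subunit of the mitochondrial enzyme that makes glutaminyl-tRNA, rose by 0.35 (SE 0.09, adjusted p = 0.0437). They passed in 5 and 4 of 9 alternative fits. All 15 values were above 0 in input RNA (median 0.17), where 9863 of 20025 genes tested were. In footprints the smallest p was that of Trnt1, which adds the CCA end of tRNAs (0.29, SE 0.05, adjusted p = 0.0655), followed by the tRNA exportin Xpot (0.18, SE 0.06, adjusted p = 0.159). In translational efficiency Dtd1, which removes D-amino acids from tRNAs, was at -0.44 (SE 0.15, adjusted p = 0.143) and Qrsl1, another subunit of the GATB enzyme, at -0.37 (SE 0.13, adjusted p = 0.163).

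Lars2 (chr9:123200938-123290740, plus strand) stood apart from the other members. Its input RNA was 37.2 and 33.2 CPM in SCR against 43.6 and 40.4 CPM in KO libraries (log2 fold change 0.26, SE 0.08, edgeR adjusted p = 0.0695). Its footprints were 429 and 935 CPM in SCR against 355 and 286 CPM in KO libraries, from 11634, 28003, 5381 and 6303 counts. SCR replicate 2 was far above the other 3 libraries, and neither comparison passed (footprints -1.09, SE 0.38, adjusted p = 0.174; translational efficiency -1.39, SE 0.45, adjusted p = 0.133). Without that library the values were -0.42 in footprints (adjusted p = 0.295) and -0.79 in translational efficiency (adjusted p = 0.0566). Without SCR replicate 1 in its place they were -1.57 (adjusted p = 0.0512) and -1.92 (adjusted p = 0.0103). The size of the Lars2 difference therefore rests on which SCR library is read.

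Of 2532 genes with at least 1000 counts in every footprint library, 2 differed by more than 2 times between SCR replicate 2 and SCR replicate 1. They were Lars2 (2.16 times) and Mir6236 (3.98 times), named here after their values were seen. Footprint counts of Mir6236 were 2542 and 11278 in SCR against 1276 and 1714 in KO libraries, and at most 1 count in any input RNA library. The cause of the gap between the SCR libraries was not tested. Lars, the cytosolic leucyl gene, was at 213 and 227 CPM in SCR against 236 and 226 CPM in KO footprints and showed no such gap.

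**Figure D5:**
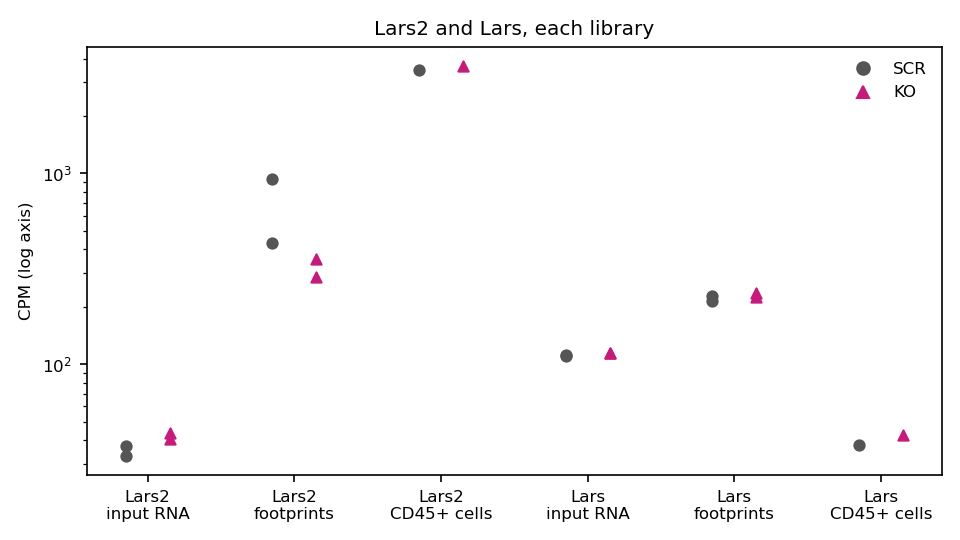
CPM (log axis) of Lars2 and Lars in each library of input RNA, footprints and CD45-positive cells. Grey circles are SCR and magenta triangles KO libraries. Lars2 footprints stand at 429 and 935 CPM in SCR against 355 and 286 CPM in KO cells. Its level in CD45-positive cells is 3470 CPM with SCR and 3636 CPM with KO tumours. Lars is nearly level in input RNA and footprints, and in CD45-positive cells it is at 37.7 CPM with SCR and 42.3 CPM with KO tumours.

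The authors also listed translated open reading frames outside the annotated coding sequences. Of 37 members 10 had an upstream or overlapping upstream reading frame (27.0%), against 30.3% of the 12270 genes with an annotated frame, and 1 had a downstream frame against 9.07%. That downstream frame belongs to Aars, starts with ATG, spans 273 codons (chr8:111783003-111783821, GRCm39) and is in the authors' deposited table of frames higher in SCR. It had 205 in-frame P-sites (the ribosome position read from a footprint), 2.92 RPKM and an adjusted p for translation of 2.50e-16 in the authors' deposited table. In the authors' deposited table of frames higher in KO, Kars had a 14-codon overlapping frame that starts with CTG (18 in-frame P-sites, adjusted p = 0.0464). Yars had a 44-codon frame that the authors place outside annotated frames, with 22 in-frame P-sites in the authors' deposited table. These values carry no replicate error.

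In CD45-positive cells of the tumours, all 37 members were detected. The libraries held 8341 barcodes (SCR tumour) and 8454 barcodes (KO tumour), with 116 barcode sequences in both, and 94452170 and 85614202 UMIs, at a median of 8759 and 7921 per barcode. UMIs were summed per library, and each counts a molecule irrespective of length. No doublet caller was run on the deposited barcodes. Intervals are exact 95% Poisson intervals and cover counting error only, and with 1 library per genotype there is no test. Lars2 was far above the rest, at 3470 CPM (3458 to 3482) with SCR and 3636 CPM (3623 to 3649) with KO tumours. In input RNA of the cultured cells Lars2 was at 33.2 to 43.6 CPM. What set its UMIs so far above those of the other members was not tested, nor whether they measure its mRNA alone. Next in the sorted cells were Eprs at 121 and 133 CPM, Sars at 105 and 109, Gars at 103 and 117 and Nars at 101 and 103. The lowest was Pars2 at 1.52 CPM (1.29 to 1.79) and 1.67 CPM (1.41 to 1.97). Eprs, Sars, Gars and Nars were also among the genes of highest footprint density in the cultured cells, and Pars2 was the lowest in both.

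The KO to SCR ratio ran from 0.971 to 1.39 with a median of 1.09, and it was above 1 in 35 of 37 members. The intervals of 15 members did not overlap, all with the higher value in the KO tumour. Over the 14336 genes with at least 100 UMIs in both libraries together, the median ratio was 1.04 and 64.7% were above 1. The intervals did not overlap in 23.0% with the KO tumour higher and in 8.97% with it lower, and this share depends on the UMIs of a gene. The highest ratio was that of Aars2, at 2.62 CPM (2.30 to 2.96) with SCR and 3.63 CPM (3.24 to 4.06) with KO tumours. It rested on 247 and 311 UMIs. In the cultured melanoma cells Aars2 input RNA did not pass (log2 fold change 0.07, SE 0.11, edgeR adjusted p = 0.691) and its footprints were lower in KO. Aars was at 60.7 and 66.6 CPM. All 7 melanoma markers were detected in these sorted libraries, with a sum of 835 CPM with SCR and 1006 CPM with KO tumours. Dct, a melanoma enzyme, was at 236 and 320 CPM, while Mitf, the melanocyte transcription factor, was lower with KO tumours at 120.2 and 107 CPM. The 6 blood cell markers summed to 7823 and 6195 CPM, mostly the myeloid gene Lyz2 (5954 and 4423 CPM). Cd68 and Csf1r, also myeloid, were lower with KO tumours too, whereas the T-cell gene Cd3e (17.96 and 23.3 CPM) and the leukocyte gene Ptprc (273 and 280.02 CPM) were higher. The part of melanoma cells, of the mix of blood cells and of depth in these ratios was not tested.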

How the data were processed

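Mouse B16-F10 cells (SCR or Mettl5 KO) were measured as input RNA and ribosome footprints, and CD45-positive tumour cells as single cells. The members and gene lists were chosen with earlier results of these data known. The authors deposited expected counts per gene, in whole numbers and without normalization. The submitters' processing notes name STAR 2.7.10a, StringTie 2.1.7 and GRCm39. The authors' deposited table of translational efficiency holds a ratio per genotype, a log2 fold change, a p-value and its adjusted p-value. Its tool, and the caller of reading frames, are not given in the sources used here. The authors' lists of reading frames give a count of in-frame P-sites, an RPKM and an adjusted p-value, read as covering all libraries together. Per the file headers, the deposited UMI counts per gene and barcode are output of Cell Ranger 8.0.1.

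The counts went into edgeR 4.0.16 (R 4.3.3) with its expression filter and TMM scaling. Its quasi-likelihood F test was adjusted over all genes tested by Benjamini-Hochberg, with a threshold of 0.05. Every log2 fold change is KO minus SCR, and its SE is the absolute fold change divided by the root of F. CPM of cultured cells is TMM-scaled, except for the marker sums and the ratio of SCR libraries, which use plain totals. Where a symbol had several identifiers, the row with most counts was kept. The labels share replicate numbers across genotypes without saying that they pair libraries; deviations of same-numbered libraries correlated at 0.0469 (input RNA) and 0.0599 (footprints), so the libraries were treated as unpaired. Replicates differed by more than sampling noise (chi-square per degree of freedom 8.05 to 38.8). The script was tested on simulated data with known changes. Alternatives were DESeq2 1.42.0, voom of limma 3.58.1, other scaling, no filter, a replicate block, leaving out each library and, chosen after seeing the data, leaving out ribosomal RNA rows.

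Mettl5 was named first, then every member past the threshold or of smallest p with its values in each library, other members by range, and up to 4 genes of each list. Members outside this rule, such as Wars, Dars, Qars, Lars and Eprs, were named after their values were seen. Python 3.11.15 with pandas 2.3.3 and scipy 1.17.1 was used for the rest. The blood T-cell receptor files were not used. The values of 1 member, counted in all totals, and 1 promoter window are not reported here.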

Additional observations from a re-analysis of the deposited data

How the results depend on the processing

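With 2 libraries per group, small changes are hard to detect in footprints and translational efficiency, and the counts of members past the threshold depend on the tool. In input RNA 11 members changed; the count was 4 without the filter on low counts, which adds genes to the test, and 2 to 13 with each library left out in turn. In footprints 1 changed; the count was 11 with DESeq2, 0 with limma's voom and 0 to 0 with each library left out. In translational efficiency 5 changed; the count was 9 with DESeq2 and 0 to 5 with each library left out. With the replicate number as a block, the counts were 13 (input RNA), 0 (footprints) and 2 (translational efficiency); the numbers are not shown to pair the libraries. Every other alternative gave a count within 1.5 times of these. Among named genes a few log2 fold changes near 0 changed sign. With each library left out, Aars2 input RNA ranged from -0.063 to 0.217, Sars footprints from -0.0558 to 0.0321, Yars footprints from -0.107 to 0.0386, Cars2 footprints from -0.0518 to 0.175 and Eprs translational efficiency from -0.0058 to 0.138. Without the filter Eprs translational efficiency was -0.0083. The cause was not tested. Of all values of named genes under the alternatives, 275, 268 and 432 kept direction and side of the threshold (input RNA, footprints, translational efficiency), 49, 6 and 37 dropped below it and 8, 12 and 5 passed it. Levels per kilobase from annotated gene lengths were not run.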
